A study of Mus musculus with 14 samples.

Results

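The serum of mice at 0 h, the starting point of the series, was profiled with the Mouse XL Cytokine Array. This array is a membrane that carries antibodies against 111 secreted or shed proteins, called analytes here. The profile was taken by the labels, as the 2 of 14 samples of the series that belong to the group CTRL_0hr, with all 111 analytes. The mice were male, 8 weeks old and of the strain C57BL/6JNarl. The study made a full-thickness wound in the skin of the back and followed the serum under a wet dressing at atmospheric pressure or under negative pressure, and its paper calls the 0 h group AP at 0 h. By the methods each mouse received the wound, and 0 h was among the times of collection. How long after wounding the 0 h blood was taken is not given in the sources used here.

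Portions of serum were combined for each membrane, so a value belongs to a pool and not to an animal. By the submitters' design note the time courses were repeated, but not the 0 h point, and yet this group has 2 samples. The array carries each protein in duplicate, so the 2 samples may be separate membranes or the duplicate spots of 1 membrane, and the labels do not settle which. They are therefore called sample 1 and sample 2, and their spread, on which the limma test also rests, may be technical. No protein was compared with a later group.

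Serum is the fluid left after blood has clotted. It holds proteins that the liver, fat and other organs release all the time, such as carrier proteins, complement and hormones, together with what platelets and white cells shed while the clot forms. Cytokines, chemokines and most growth factors act mainly where they are made, and in a resting animal little of them circulates. Soluble forms of adhesion molecules and receptors enter the blood when enzymes cut them from the surface of vessel cells and leukocytes.

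The brightness of a spot was expressed as the normalized intensity, which the authors obtained by scaling each sample with its reference spots, the spots that are bright whatever the serum holds. The mean reference spot stood at 163044 in each sample after this scaling. The raw reference spots at the 3 positions read 172546, 165069 and 151518 in sample 1 and 178164, 163186 and 162885 in sample 2, so the positions within a sample differed by 12.9% and 9.09% of their mean. The negative control, a spot with no specific antibody, read 73 in sample 1 and 20.4 in sample 2, a ratio of 3.58 between the samples. Each analyte is read by its own antibodies, so a brighter spot does not show a higher concentration than a dimmer one of another protein. The words bright, middle and near therefore describe spots and not amounts.

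An analyte was called bright when it reached at least 10% of the mean reference spot in both samples, and near when it was at most 10 times the negative control in at least 1 sample. All others were called middle. By this rule 38 analytes were bright (34.2% of the 111), 26 were middle (23.4%) and 47 were near the negative control (42.3%). The bright analytes held 91.6% of the summed brightness, the middle ones 7.60% and the near ones 0.768%. The brightest mean, that of Angiopoietin-1, was 1951 times the dimmest, that of CCL20. In all, 44 analytes averaged 10000 or more, 17 lay from 1000 to 10000 and 50 lay under 1000, with a median of 1755 over the 111.

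**Figure D1:**
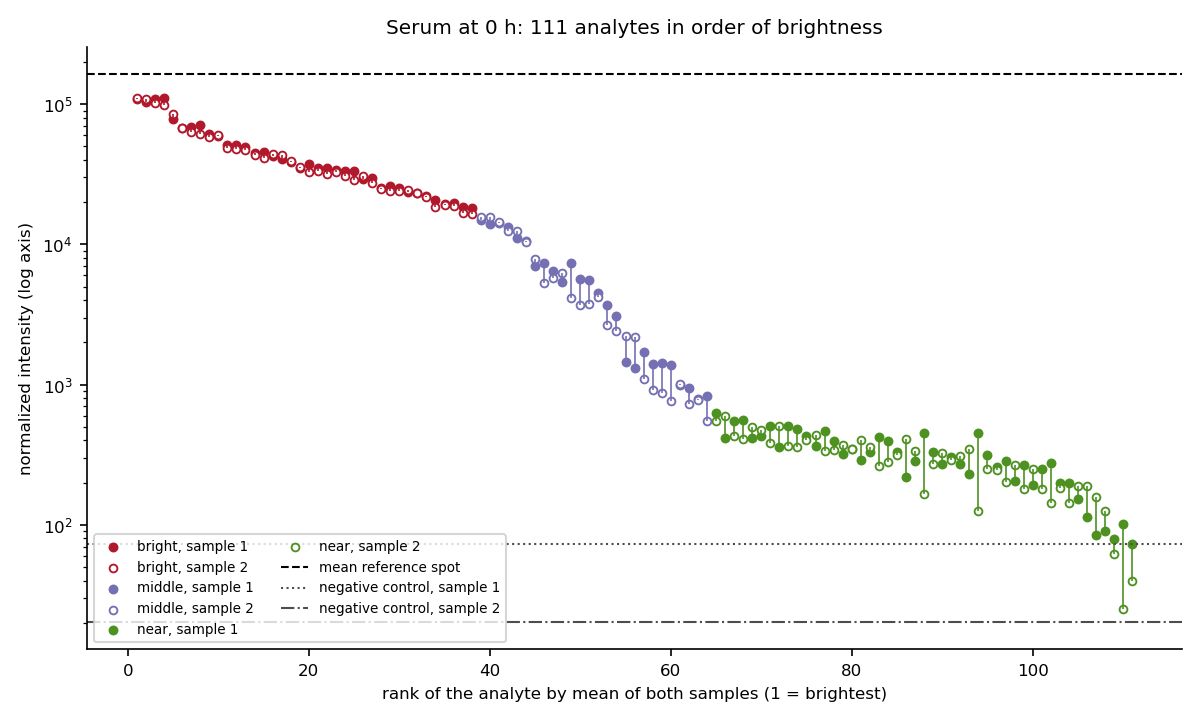
Normalized intensity (log axis) of the 111 analytes in serum at 0 h, in order of the mean of both samples, with filled points for sample 1, open points for sample 2 and lines for the mean reference spot and each sample's negative control. The values run down from about 110014 for Angiopoietin-1 to 56.4 for CCL20, and the open and filled points draw apart below about 10000.

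At the limit of the bright group, the adhesion molecule VCAM-1 (18469 and 16811) and EGF (18067 and 16394) lay just inside, above 16304. Cystatin C (14924 and 15773) and Gas 6 (13918 and 15653) lay just outside. At the other limit, which was 730 in sample 1 and 204 in sample 2, IL-1alpha (783 and 775) and LIF (833 and 550) were just inside the middle group and FGF-21 (631 and 548) was just inside the near group. All 47 near analytes met the limit through sample 1, and 15 of them met it in sample 2 as well. The size of the near group thus rests on the brighter negative control of sample 1, and without this sample it was 15 (13.5% of the 111), with 58 middle analytes. Counts of near members are therefore given with the count without sample 1. Counts of bright and near members of a class are to be read beside 34.2% and 42.3% over the 111.

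Of the 111 analytes, 110 (99.1%) were above the negative control of their own sample in both samples. The exception was CCL20, a chemokine that draws CCR6-bearing T cells and dendritic cells, which read 73 in sample 1, equal to the negative control there, and 39.8 in sample 2, 1.95 times the control. In limma, 94 analytes (84.7%) were brighter than the negative control at an adjusted p under 0.05. This test takes its spread from all analytes, and every ratio of a sample shares that sample's reading of the negative control, so its p-values are too small. With the spread of each analyte alone, 0 of 111 passed and 6 had an unadjusted p under 0.05.

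Both samples differed by a median of 12.9% of their mean over the 111 analytes. The median was 5.34% among the bright analytes, 25.7% among the middle ones and 28.5% among the near ones. In all, 46 analytes differed by under 10% and 10 by over 50%. The least difference was that of IGFBP-5, at 0.211%, and the largest were those of PD-ECGF, a thymidine phosphorylase (121%), Amphiregulin, a ligand of the EGF receptor (114%), and Proliferin, a growth factor of the prolactin family with close copies in the mouse genome (92.3%). After these came IL-5 (64.1%) and IL-11 (61.2%). Amphiregulin read 454 in sample 1 and 125 in sample 2, and Proliferin read 450 and 166. Sample 1 was the brighter in 28 of 38 bright, 17 of 26 middle and 27 of 47 near analytes. In the order of the means, 89 of the 110 neighbouring pairs had samples that overlapped, so the order of close neighbours is not set by these data. Spearman's rho between the samples was 0.97 over the 111 analytes, 0.99 over the 38 bright and 0.66 over the 47 near ones. The groups were cut from these same samples and span unlike ranges, so the values within groups are not a like comparison. All points of a sample share its serum, its scaling and its image.

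**Figure D2:**
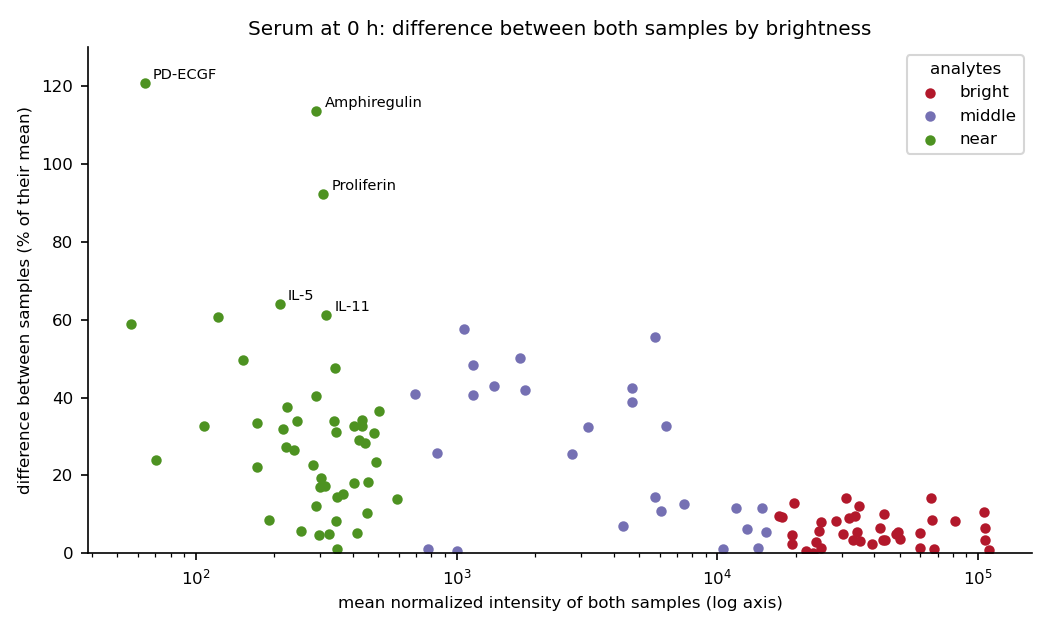
Difference between both samples as a percent of their mean, against the mean normalized intensity (log axis), for the 111 analytes coloured by group, with the 5 largest named. No bright analyte differed by more than 14.3%, while near analytes reached 121%.

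A vessel factor, a chemokine, a matrix protease and a lectin gave the brightest spots. Angiopoietin-1, which keeps vessels stable through the receptor Tie2, read 109592 and 110436. LIX, the neutrophil-attracting chemokine encoded by Cxcl5, read 104258 and 107982. MMP-3, or stromelysin-1, a protease of the connective tissue, read 109561 and 102546. Reg3G, a lectin of the gut lining that kills bacteria, read 110469 and 99293. These 4 were the analytes with a mean above 100000, at 60.9% to 67.8% of the reference spots, and their ranges did not overlap that of Adiponectin, the next in order (78078 and 84862). The samples of LIX and MMP-3 overlapped, and those of Reg3G enclosed those of MMP-3, LIX and Angiopoietin-1, so no full order among the 4 can be given. Angiopoietin-1 lay above LIX and MMP-3 in both samples, though barely above MMP-3 in sample 1.

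The IGF-binding proteins, which carry insulin-like growth factors in the blood and prolong their life there, were bright as a family. All 5 measured members were bright, with a median of 65935, against 1755 for the 111 analytes. IGFBP-2 read 67904 and 67220, IGFBP-6 read 69149 and 63449, and IGFBP-1, which the liver makes during fasting, read 70662 and 61208. The samples of these 3 overlapped. IGFBP-3, the main carrier in the circulation, read 38571 and 39550, and IGFBP-5 read 23237 and 23188, each clear of the other 4 in both samples.

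Among the regulators of vessels, 3 of 4 were bright and 1 was middle, with a median of 42526. Beside Angiopoietin-1, these were Angiopoietin-2, its antagonist at Tie2 in most settings (42476 and 43921), and Endostatin, an inhibitor of vessel growth cut from collagen XVIII (40508 and 43198). Serpin F1, or PEDF, another inhibitor of vessel growth, was middle at 4491 and 4183. VEGF, the main growth factor of vessel cells, which was listed with the growth factors, was near the negative control at 285 and 339, but not without sample 1.

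Of the 6 proteins of the matrix and its turnover, 5 were bright and 1 was near, with a median of 34269. The gelatinases MMP-9, which neutrophils store, and MMP-2, which stromal cells make, read 50726 and 47988, and 23573 and 24297. Osteopontin, a phosphoprotein that binds integrins, read 44749 and 43189, and Periostin, a matrix protein of connective tissue, read 25274 and 23866. The exception was Serpin E1, or PAI-1, the main inhibitor of plasminogen activators, at 548 and 433, which was not near without sample 1.

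Hormones of fat tissue gave 3 bright spots and 1 near spot. Adiponectin, which raises the response to insulin, was the fifth in brightness. Chemerin, encoded by Rarres2 and an attractant of dendritic cells and macrophages, read 37151 and 32906, and Resistin read 33200 and 28784. Leptin, the hormone that reports fat stores to the brain, was near the negative control at 292 and 400, with its lower value 4.00 times the control of sample 1, and it was not near without that sample.

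Complement proteins and pentraxins held 2 bright and 3 middle spots, with a median of 6352. CRP, a pentraxin that in mice is only a minor acute phase protein, read 61552 and 58476. Complement Factor D, or adipsin, the fat-derived protease of the alternative pathway, read 50856 and 48982. Pentraxin 2, or SAP (Apcs), the main acute phase pentraxin of the mouse, was middle at 5594 and 3774, and Pentraxin 3, which vessel cells and macrophages make, at 7387 and 5317. Complement Component C5, encoded by Hc, read 5358 and 6201. The samples of these 3 middle proteins overlapped.

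Of 5 proteins made for the circulation, 3 were bright and 2 were middle, with a median of 28401. Among them were Angiopoietin-like 3, a liver inhibitor of lipoprotein lipase (59577 and 60409), Fetuin A, a liver glycoprotein (29572 and 27229), Cystatin C, an inhibitor of cysteine proteases (14924 and 15773), and RBP4, the carrier of retinol (13353 and 12548). Cystatin C and RBP4 were the middle ones. A wider list of 10 proteins that mark serum, from Adiponectin to Serpin F1 and including IGFBP-3, CRP and Fetuin A, had 5 bright, 5 middle and 0 near members. Their lowest mean was that of Serpin F1, at 4337, above the limit of the near group in both samples.

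Neutrophil granule proteins were bright in 3 of 4 cases. MMP-9 was the brightest, followed by Myeloperoxidase, the enzyme that makes hypochlorous acid (33521 and 30592), and Chitinase 3-like 1 (29472 and 30968). Lipocalin-2, which binds bacterial siderophores, was middle at 7337 and 4142, a difference of 55.7% between the samples. The summed brightness of the 4 was 121056 in sample 1 and 113690 in sample 2.

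Proteins held by platelets were spread over the bright, middle and near groups. Of 8 listed, Angiopoietin-1, LIX, P-Selectin and EGF were bright, PDGF-BB was middle at 6962 and 7912, and CCL5 (396 and 281), Serpin E1 and VEGF were near, though 0 of the 8 were near without sample 1. Their summed brightness, most of it from Angiopoietin-1 and LIX, was 275190 in sample 1 and 276950 in sample 2. By the methods the blood stood before it was spun, and the part of release in the tube in the brightness of these spots was not tested.

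Of the 5 adhesion molecules, 4 were bright and 1 was middle, with a median of 19236. P-Selectin, which platelets and vessel cells bring to their surface when activated, read 35082 and 33174, and ICAM-1, which binds leukocyte integrins, read 35248 and 32016. E-Selectin, an adhesion molecule of vessel cells, read 19686 and 18785. VCAM-1 stood close to the limit given above. Endoglin, a co-receptor for TGF-beta on vessel cells, was the dimmest at 1391 and 921.

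The other shed receptors and membrane enzymes were more mixed, with 2 bright, 2 middle and 4 near members and a median of 743. DPPIV, a peptidase that trims incretins and chemokines, read 33704 and 32564, and CD93, a receptor on vessel and myeloid cells, read 19508 and 19035. The LDL R read 11061 and 12435, and RAGE, the receptor for glycated proteins and alarmins, read 1000 and 1005. The near members were CFIII, or tissue factor (F3), which starts clotting, at 558 and 408, CD14, the co-receptor for endotoxin, at 427 and 405, TIM-1 (Havcr1), which injured kidney tubules shed, at 322 and 372, and CD160, a receptor of natural killer and T cells, at 330 and 272. Without sample 1, 0 of these 8 proteins were near. Over all 23 listed proteins that are made as membrane-anchored precursors, 9 were bright (39.1%, against 34.2% of the 111), 6 middle and 8 near (34.8%, against 42.3%), with a median of 1156. Without sample 1, 1 of the 23 was near.

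**Figure D3:**
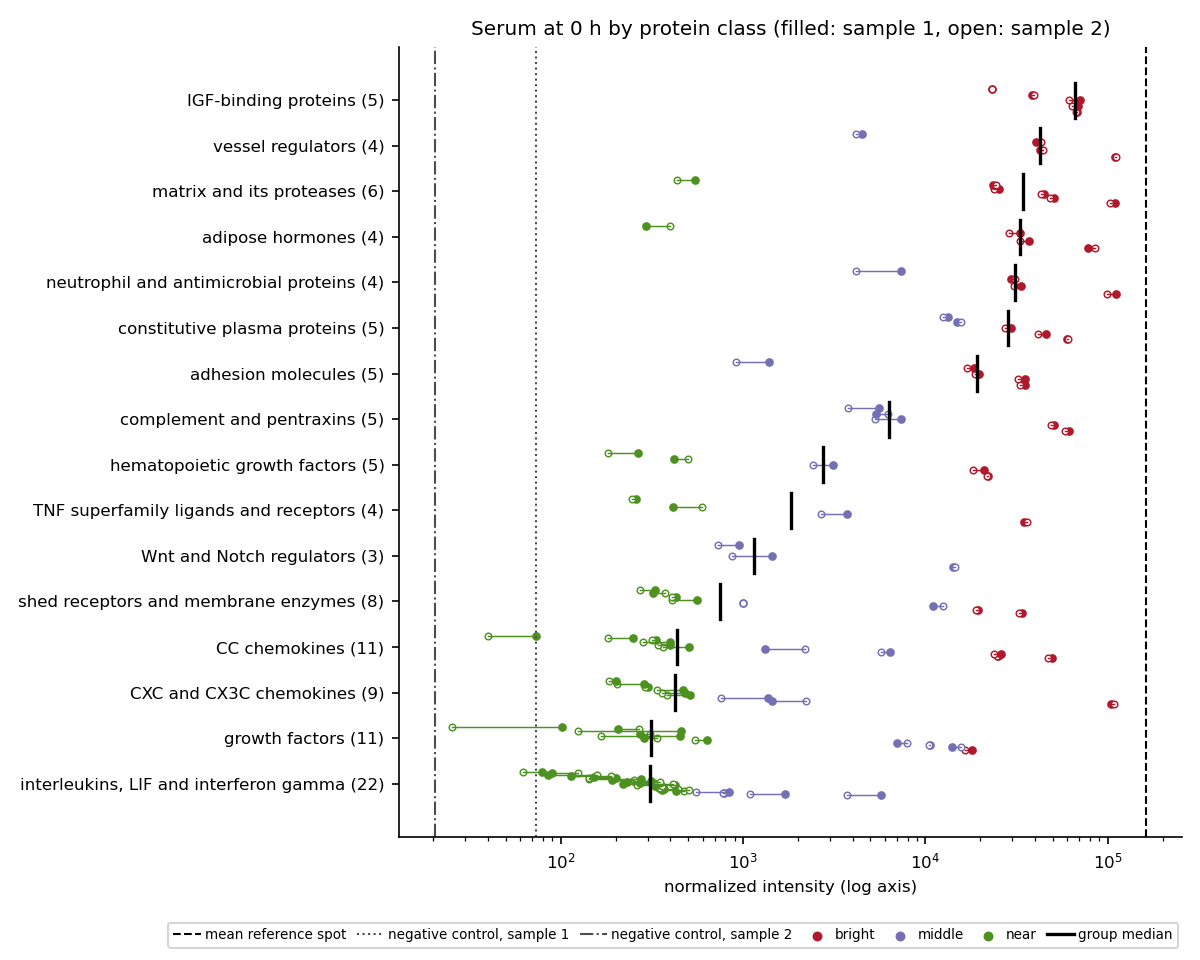
Normalized intensity (log axis) of each analyte at 0 h by protein class, with the number of analytes in brackets, filled points for sample 1, open points for sample 2, and a black bar for the class median. All 5 IGF-binding proteins lie at 23188 or above, while 18 of the 22 interleukins and related cytokines lie near the negative control by the limit of sample 1 and 7 by that of sample 2.

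The chemokines, small proteins that direct the movement of leukocytes, were found in all 3 groups of brightness. Of 11 CC chemokines, 3 were bright (27.3%, against 34.2% of the 111), 2 middle and 6 near (54.5%, against 42.3%). Their median was 433. Without sample 1, 2 were near (18.2%, against 13.5%). CCL21 (Ccl21a in the gene table, with close copies in the mouse genome), which guides T cells and dendritic cells into lymph nodes, read 49367 and 47013. CCL11, or eotaxin, the attractant of eosinophils, read 25139 and 24771, and CCL6, which macrophages and neutrophils make, read 25913 and 23923. CCL22, an attractant of regulatory T cells through CCR4, was middle at 6405 and 5738, as was CCL17, its partner at the same receptor, at 1315 and 2195. The samples of CCL17 differed by 50.2%. The chemokines of monocyte recruitment were near, with CCL2 at 504 and 363 and CCL12 at 333 and 317, but neither was near without sample 1. CCL19, which shares the receptor CCR7 with CCL21, was near at 250 and 181, and it stayed near without sample 1, as did CCL20. The spot listed for both CCL3 and CCL4, which attract monocytes and T cells, was near at 396 and 340, but not without sample 1.

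Of 9 CXC and CX3C chemokines, 1 was bright (11.1%, against 34.2% of the 111), 2 were middle and 6 near (66.7%, against 42.3%). Their median was 421. Without sample 1, 2 were near (22.2%, against 13.5%). LIX, at more than 100000, stood apart from CXCL1 (286 and 203) and CXCL2 (469 and 338), which attract neutrophils through the same receptor, CXCR2. CXCL13, which draws B cells into follicles, was middle at 1448 and 2216, and CXCL16, a scavenger receptor and chemokine, at 1375 and 760. The ligands of CXCR3 that interferon gamma induces were near in all 3 cases, with CXCL9 at 200 and 183, CXCL10 at 303 and 289 and CXCL11 at 482 and 360, but without sample 1 only CXCL9 was. CX3CL1, or fractalkine, read 509 and 382.

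The interleukins with LIF and interferon gamma had the lowest median of the 16 classes, though that of the growth factors, at 312, was hardly higher. Of 22, 0 were bright, 4 were middle and 18 were near (81.8%, against 42.3% of the 111), with a median of 307. Without sample 1, 7 of the 22 were near (31.8%, against 13.5%), namely IL-5, IL-13, IL-1ra, IL-17A, IL-15, IL-1beta and IL-10. The brightest was IL-4, the cytokine of type 2 helper T cells, at 5709 and 3708, followed by IL-12 p40 (Il12b), the chain shared by IL-12 and IL-23, at 1698 and 1096. The samples of these proteins differed by 42.5% and 43.1%, yet neither came near the limit of the near group. IL-1alpha and LIF made up the rest of the middle group. The inflammatory cytokines IL-6 (345 and 349) and IL-1beta (90 and 125) were near, and so was IL-1ra, the antagonist of IL-1, at 152 and 190. Of the other near members, IL-23, which sustains type 17 T cells, read 314 and 250, and IL-7, a survival factor of lymphocytes, read 428 and 475. The means of IL-3, IL-11, IL-27 p28, IL-28A/B and IL-33 lay between theirs, which were 282 and 452. IL-10, which restrains macrophages, was the dimmest of the class at 79 and 62.1, or 1.08 and 3.05 times the negative control.

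Among 8 cytokines of type 1, type 2 and type 17 T cells, 7 were near (87.5%, against 42.3% of the 111) and IL-4 was middle. Without sample 1, 4 were near, namely IL-5, IL-13, IL-17A and IL-10, and interferon gamma, IL-2 and IL-22 were not. Interferon gamma read 360 and 508, IL-2 read 191 and 251, and IL-22 read 273 and 324. IL-13 (200 and 143) and IL-5 (277 and 143), which type 2 T cells make together with IL-4, lay far below it. IL-17A, at 114 and 189, was 1.56 times the negative control in sample 1 and 9.29 times in sample 2. IL-15 (85 and 159), a growth factor of natural killer cells, was similar, at 1.16 and 7.81 times.

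Of 11 growth factors, 1 was bright, 3 were middle and 7 were near (63.6%, against 42.3% of the 111), with a median of 312. Without sample 1, 3 were near, namely Proliferin, Amphiregulin and PD-ECGF. EGF was the bright one. Gas 6, a vitamin K-dependent ligand of the Axl family of receptors, HGF, a growth factor for liver cells (10589 and 10471), and PDGF-BB were middle. The near members included FGF-21, a hormone of the fasting liver, FGF acidic (206 and 269), GDF-15, a hormone of cell stress (272 and 308), VEGF, Amphiregulin and Proliferin. PD-ECGF (Tymp) was the dimmest of them at 102 and 25.2, which is 1.40 and 1.24 times the negative control.

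Of 5 hematopoietic growth factors, 2 were bright, 1 was middle and 2 were near (1, G-CSF, without sample 1), with a median of 2758. M-CSF, which keeps monocytes and macrophages alive, read 21951 and 21833, and Thrombopoietin, which drives platelet production, read 20869 and 18336. Flt-3 Ligand, a factor for dendritic cell precursors, was middle at 3109 and 2407. G-CSF (265 and 181) and GM-CSF (416 and 501), which are raised in infection, were near. In the TNF superfamily, BAFF, the survival factor of B cells, was bright at 34782 and 35906. Osteoprotegerin, a decoy receptor that protects bone, was middle at 3696 and 2661, while CD40 (413 and 598) and TNF-alpha (260 and 245) were near, though not without sample 1. The regulators of Wnt and Notch signaling were all middle, with DKK-1, an inhibitor of Wnt, at 14246 and 14461, Pref-1 at 1433 and 874, and WISP-1 at 949 and 731.

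The authors entered a wound-healing Function for 105 of the analytes. Over all 111, 34.2% were bright and 42.3% near, or 13.5% near without sample 1. Under Remodeling alone, 5 of 7 analytes were bright (71.4%), with a median of 30220. MMP-3 was the highest there and IL-13, with a mean of 171, the lowest. Under Proliferation alone, 10 of 25 were bright and 8 near (2 without sample 1), with a median of 10530 and a range from PD-ECGF to Angiopoietin-1. Under Inflammation alone, 11 of 42 were bright (26.2%) and 22 near (52.4%), or 7 near (16.7%) without sample 1. The median was 524, with a range from CCL20 to LIX. The 20 analytes entered under both Inflammation and Proliferation had 6 bright and 10 near members (4 without sample 1) and a median of 751, from IL-10 to Adiponectin.

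Hemostasis alone held 4 analytes, of which Thrombopoietin was bright, PDGF-BB middle, and CFIII and Serpin E1 near, though neither without sample 1. Lipid metabolism held 3 analytes, of which 2 were bright, Resistin among them, and the LDL R was middle. Complement Factor D, under Inflammation and Remodeling, and IGFBP-1, under Proliferation and Remodeling, were bright, whereas IL-11, under Apoptosis, and VEGF, under Hemostasis, Inflammation and Proliferation, were near, though not without sample 1. The 6 analytes with no entry were Endostatin, Cystatin C, RBP4, Osteoprotegerin, CD40 and Proliferin. Of all 64 analytes with Inflammation in the entry, 33 were near (51.6%), against 42.3% of the 111, or 11 (17.2%) against 13.5% without sample 1, and of all 9 with Remodeling, 7 were bright (77.8%), against 34.2%. These shares are descriptions of the panel. The maker of the array chose the analytes and the authors assigned the entries, so neither was drawn at random.

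**Figure D4:**
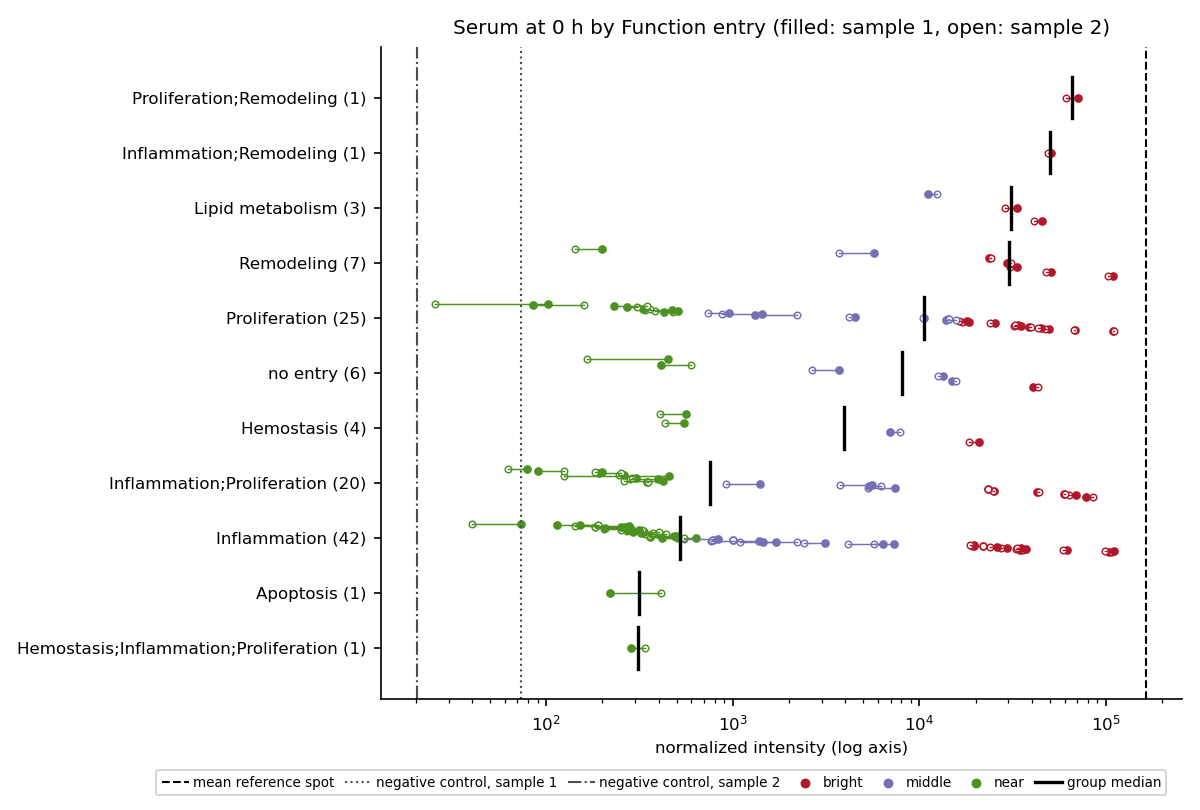
Normalized intensity (log axis) of each analyte at 0 h by the Function entry of the authors, with the number of analytes in brackets, filled points for sample 1, open points for sample 2, and a black bar for the median. The entries with 25, 20 and 42 analytes each hold near, middle and bright members and reach means of 81470 or more.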

How the data were processed

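Serum proteins were measured on antibody membranes, and the 2 samples labelled CTRL_0hr were described over 111 analytes. The authors quantified the spots with ImageJ. The deposited raw intensity was multiplied by the authors with a factor for each sample (1 for sample 1 and 0.970 for sample 2), the smaller of 1 and the ratio of the other sample's mean reference spot to its own, which gave the deposited normalized intensity. Whether a background was subtracted is not given in the sources used here. The authors' columns of the ratio (fold) to the 0 h mean hold their own comparisons and were not used. The series values equalled the normalized columns (largest relative difference 0). For the negative control, given raw only, the same factors were applied. Entrez identifiers matched a symbol for 111 of 111 analytes in the RefSeq table of GRCm38.p6, and 2 of these cover 2 genes each.

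Brightness groups, counts, medians and differences between the samples were computed with Python 3.11.15, pandas 2.3.3 and numpy 2.4.6, and drawn with matplotlib 3.10.9. The log2 ratio of each analyte to the negative control of its own sample was tested against 0 (two-sided) with limma 3.58.1 in R 4.3.3, with a trend on the mean log2 intensity and Benjamini-Hochberg adjustment over the 111 analytes at 0.05. The fit was also run on simulated data. Their spreads were set and not taken from the readings of the negative control, so that run does not show that the p-values are right. The lists and classes were chosen with earlier results of these data known, and no list was tested. The values of 1 analyte are not reported here, though it is counted. The analytes named were the 12 brightest and 12 dimmest, the extremes of each Function entry, class and list, those at the limits, the 5 with the largest difference between samples and members of short lists, and others given as examples were chosen after their values were seen. Alternatives were raw intensities, the negative control subtracted, stricter and looser limits, groups of 37 by rank, other fits and each sample alone. The number of samples limits the precision. Other samples entered 1 alternative fit and its leave-one-out versions only, as a source of spread.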

Additional observations from a re-analysis of the deposited data

How the results depend on the processing

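The number of bright analytes was 38 on the raw intensities, with the negative control subtracted and in either sample alone (38 to 38), 37 when the order was cut into groups of 37 and 44 with the looser limits (5% of the reference spots and 20 times the negative control), but 21 with the stricter limits (20% and 5 times). The near group held 47 analytes, 30 with the stricter limits, and 47 in sample 1 alone but 15 without sample 1 (15 to 47), while the middle group held 26, 60 with the stricter limits, 11 with the looser limits and 58 without sample 1 (26 to 58). Sample 1, with the brighter negative control, thus sets where near ends and middle begins.

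The limma count of 94 analytes brighter than the negative control became 0 with the spread of each analyte alone, 106 without the trend, 108 with the mean negative control of both samples, 77 of 83 without the lowest 25% of the analytes, and 108 in a fit over all 14 samples. In that fit it was 101 to 109 when 1 of the 0 h samples was left out, where the remaining sample is assumed to vary like the other groups. Above the negative control in both samples were 110 analytes, 106 at 1.5 times the control and 110 to 111 in 1 sample alone. The median difference between the samples of 12.9% was 13.5% on the raw intensities, 9.71% without the lowest 25% and 46.3% with the medians of both samples set equal, since the median analyte was 1448 in sample 1 and 2195 in sample 2. The medians of classes and Function entries moved by at most 2.02% on the raw intensities and by at most 45.6% with 1 sample alone (growth factors, 454 without sample 2). No paired analysis was possible because a single group was described. Groups of 2 samples allow no outlier test.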
